A study of Homo sapiens with 34 samples.

Results

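SOX2 bound 37963 sites of MB157R iEV cells on chromosomes 1 to 22 and X, and 9534 of them (25.1%, exact binomial 95% interval 24.7 to 25.5%) had neither HA-SOX2 of MB157 iSOX2 cells nor RBPJ of any condition beside them. A site is the summit of a peak, the base where the ChIP-seq signal is highest. These 9534 sites, called SOX2-alone sites here, were selected on the peak calls themselves: no summit of the HA-SOX2 list and none of the 4 RBPJ lists lay under 500 bp away. The remaining 28429 sites fell into 3 classes, 3357 with HA-SOX2 but no RBPJ, 15238 with RBPJ but no HA-SOX2 and 9834 with both.

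MB157 is a NOTCH-driven triple-negative breast cancer line, and MB157R is its resistant derivative, grown for 25 weeks under GSI, an inhibitor of γ-secretase, at 1 µM. Whether the inhibitor was present at the time of the ChIP is not stated in the sources used here. All cells received doxycycline (1 µg/ml for 72 h), which induced N1-ICD (NOTCH1 without its extracellular domain) in MB157R iN1-ICD, an empty vector in MB157R iEV, HA-tagged SOX2 in MB157 iSOX2 and an empty vector in MB157 iEV. RBPJ was immunoprecipitated in all 4 lines, SOX2 in both MB157R lines, and the HA tag in both MB157 lines. The 34 libraries held 22 immunoprecipitations in 8 groups, with 3 libraries in each group but 1 for the HA control of MB157 iEV, and 12 inputs in 4 groups.

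The authors called peaks on the pooled libraries of a group. Each condition is therefore 1 list without a replicate spread, and every interval or test below is about sites within pooled lists and covers counting error only. SOX2 of MB157 was read through the HA tag of the induced protein, so a site without HA-SOX2 is one where that list has no summit. It does not show that the resistant line alone can bind there, and the name SOX2-alone says no more than the rule. The HA-SOX2 list was also the longest, with 108203 peaks on these chromosomes, against 323 in the SOX2 list of MB157R iN1-ICD, 37963 in that of MB157R iEV and 25243 to 46601 in the 4 RBPJ lists.

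SOX2 is a high-mobility-group transcription factor of stem and progenitor cells that binds a short AT-rich motif in the minor groove, often beside a partner such as a POU factor. RBPJ is the DNA-binding protein of the NOTCH pathway, which the intracellular domain of NOTCH turns into an activator of genes such as HES1, HEY1 and NRARP. AP-1 (FOS and JUN dimers), TEAD, RUNX and ETS factors are known to occupy distal enhancers of basal and mesenchymal epithelial cells.

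The DNA is shown under some of the strongest and the named SOX2-alone sites, which are not typical of the class: a SOX motif was in 56% of the 50 strongest but 16.4% of all, and 33.4% of all had none of the SOX, AP-1, ETS, RUNX and TEAD motifs. The 201 bases centred on the summit are given for 5 of the 15 strongest sites near genes and for both sites at ERG, from the hg38 reference. Capitals mark a SOX motif (ACAATGG or ACAAAGG), an AP-1 motif (TGACTCA), an ETS motif (CCGGAAG or CAGGAAG), a TEAD motif (CATTCCA or CATTCCT), a RUNX motif (TGTGGTT) or the composite of a SOX core and a POU half-site (TTGTNATGC), on either strand. Overlapping motifs form 1 run of capitals.
NRARP site (chr9:137302217-137302417, plus strand): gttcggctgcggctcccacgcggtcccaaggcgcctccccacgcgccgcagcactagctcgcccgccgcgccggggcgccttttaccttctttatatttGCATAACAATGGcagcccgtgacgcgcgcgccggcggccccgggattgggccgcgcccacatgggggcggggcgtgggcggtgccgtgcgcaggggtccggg
ADGRF5 site (chr6:46993905-46994105, plus strand): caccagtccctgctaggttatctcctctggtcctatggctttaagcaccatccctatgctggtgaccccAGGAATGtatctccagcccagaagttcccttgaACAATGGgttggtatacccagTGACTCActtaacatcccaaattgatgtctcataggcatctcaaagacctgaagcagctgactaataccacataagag
BUB1 site (chr2:110688915-110689115, plus strand): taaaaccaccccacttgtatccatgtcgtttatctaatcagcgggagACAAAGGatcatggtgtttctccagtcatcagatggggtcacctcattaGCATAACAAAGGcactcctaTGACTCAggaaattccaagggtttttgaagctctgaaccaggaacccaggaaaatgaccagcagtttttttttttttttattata
KDR site (chr4:55172755-55172955, plus strand): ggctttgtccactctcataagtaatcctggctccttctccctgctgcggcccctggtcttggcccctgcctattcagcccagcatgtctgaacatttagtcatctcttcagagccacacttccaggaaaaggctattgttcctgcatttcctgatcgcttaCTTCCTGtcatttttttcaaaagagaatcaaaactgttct
ACSL1 site (chr4:184793036-184793236, plus strand): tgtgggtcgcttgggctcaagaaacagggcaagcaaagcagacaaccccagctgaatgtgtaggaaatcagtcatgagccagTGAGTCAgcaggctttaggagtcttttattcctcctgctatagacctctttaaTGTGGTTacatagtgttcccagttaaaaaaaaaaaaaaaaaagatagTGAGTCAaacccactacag
ERG upstream site (chr21:38679692-38679892, plus strand): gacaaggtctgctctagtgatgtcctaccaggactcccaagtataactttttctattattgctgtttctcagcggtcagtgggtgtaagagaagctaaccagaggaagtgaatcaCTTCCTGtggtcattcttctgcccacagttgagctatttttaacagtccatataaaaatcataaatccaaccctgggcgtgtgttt
ERG gene body site (chr21:38645308-38645508, plus strand): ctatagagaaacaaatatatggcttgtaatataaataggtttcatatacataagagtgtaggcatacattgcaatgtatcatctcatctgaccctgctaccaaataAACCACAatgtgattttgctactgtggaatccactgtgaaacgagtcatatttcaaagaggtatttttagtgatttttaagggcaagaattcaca

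The sites at NRARP and BUB1 each carried the composite SOX and POU sequence fused to a SOX motif. The ADGRF5 and BUB1 sites carried SOX and AP-1 motifs together, and the ACSL1 site carried 2 AP-1 motifs and a RUNX motif but no SOX motif. At KDR and upstream of ERG the marked motif was that of ETS factors, the family to which ERG belongs.

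The strongest SOX2-alone sites with a protein-coding transcription start site (TSS) within 50 kb, and outside every HA-SOX2 and RBPJ peak, had a fold of 16.2 to 52.3. The fold is the enrichment the authors list for the summit, relative to the input expected there, and because the sites were taken from this list it is a description only. The first was 46 bp upstream of the TSS of NRARP, a feedback inhibitor of NOTCH signaling, with a fold of 52.3 and 177 fragments at the summit. Its peak was 220 bp wide, the narrowest of all 467 SOX2 sites with a fold of 20 or more, whose median width was 792 bp and next narrowest 373 bp. An RBPJ summit lay 0.612 kb away and an HA-SOX2 summit 2.19 kb away. The base composition there was 74.1% GC, against a median of 41.3% over all SOX2-alone sites.

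The next sites lay 39.1 kb upstream of ADGRF5, an adhesion receptor (fold 29.7), in intron 1 of TTBK2, a kinase needed for cilia (fold 27.5), and, with a fold of 26.9, 10952 bp upstream of BUB1, which encodes a spindle checkpoint kinase. PREP, a peptidase, had a site 6.01 kb upstream with a fold of 22.5, and HYAL4, of the hyaluronidase family, one 9.77 kb upstream with a fold of 20.6. The site near the olfactory receptor gene OR10S1 had a fold of 20.5, and that 47.3 kb upstream of KDR, the main receptor of vascular endothelial growth factor, one of 19.3 with an RBPJ summit 0.835 kb away. Folds of 18.6 and 17.2 were listed near MTNR1B, a melatonin receptor, and AREG, which encodes the EGFR ligand amphiregulin. ACTRT1, ACSL1 (a fatty acid ligase, site in its intron 2), IFNA1 (an interferon) and PSG5 (a pregnancy-specific glycoprotein) followed between 16.2 and 16.6. Of the 15 sites, 13 were intergenic and 2 intronic, 10 held a SOX motif, 6 an AP-1 motif and 4 both.

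BUB1 had a weaker SOX2-alone site as well, 1.30 kb upstream of its TSS with a fold of 3.13. At ERG, an ETS factor of endothelial and blood cells, 2 sites were SOX2-alone: one 18.0 kb upstream with a fold of 7.57 and 25 fragments, and one in the gene body, outside the canonical transcript, with a fold of 5.07 and 22 fragments. Another SOX2 site at ERG had the highest fold there (8.87) but an RBPJ summit 0.083 kb away. The strongest sites at the ETS genes EHF (fold 29.4) and FLI1 (fold 28.7) were likewise not SOX2-alone, with RBPJ summits 0.032 and 0.013 kb away, and neither gene had a SOX2-alone site within 50 kb.

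SOX2-alone sites were weaker and narrower than the other SOX2 sites, and farther from genes. Their median fold was 4.73 (quartiles 3.87 to 6.11), against 5.53 (4.22 to 7.82) at the other sites. Within the other classes the median was 5.30 with HA-SOX2, 5.41 with RBPJ and 5.96 with both. The number of fragments at the summit, recovered from the fold and its p value, had a median of 16 at SOX2-alone sites and 21 at the other sites, over an expected background of 2.47 and 2.73 fragments. The median width was 322 bp, against 355, 442 and 492 bp in the class with HA-SOX2, the class with RBPJ and the class with both. A fold above 10 was listed for 4.93% of SOX2-alone sites and 14.2% of the others. The part that peak strength and depth have in setting these classes was not tested.

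**Figure D1:**
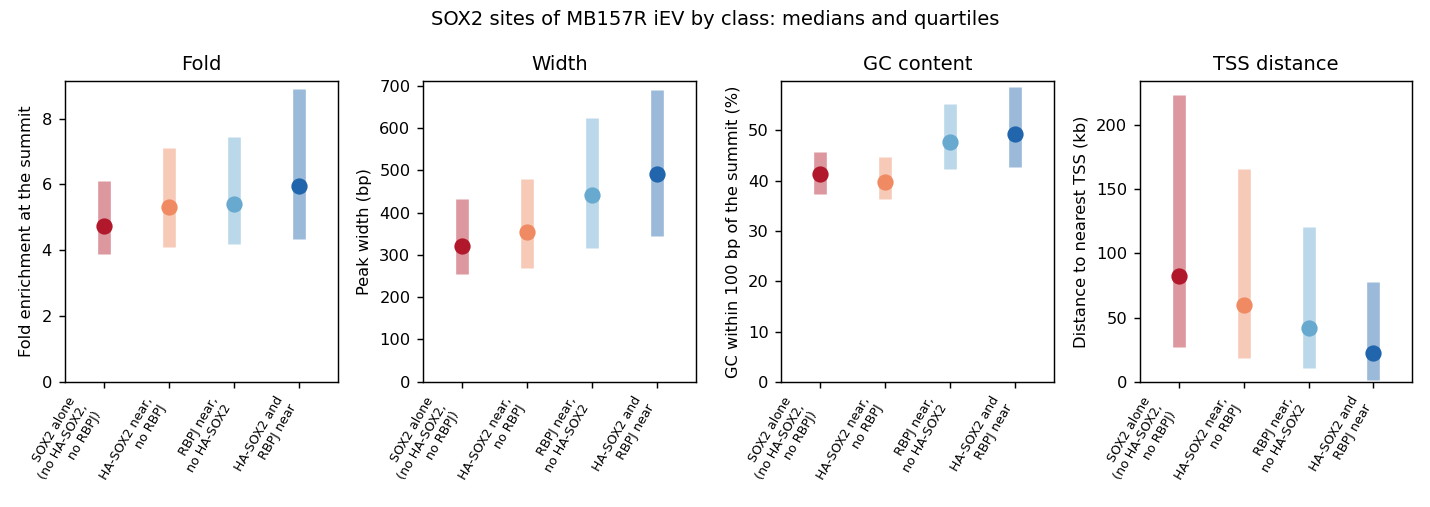
Medians (points) and quartiles (bars) of fold, peak width in bp, GC percent and distance to the nearest protein-coding TSS in kb for the 4 classes of SOX2 sites of MB157R iEV. SOX2-alone sites have the lowest median fold (4.73) and width (322 bp) and the longest median distance to a TSS (82.3 kb).

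The values on both sides of the 500 bp limit of the rule were as follows. The 416 SOX2-alone sites whose nearest HA-SOX2 or RBPJ summit lay 500 to 599 bp away had a median fold of 4.66, and the 540 sites just outside, with a summit 400 to 499 bp away, had 4.66 as well. The median peak width was 378 bp inside and 428 bp outside. The AP-1 motif described below was in 23.6% of those inside and 22.2% of those outside, and a TSS lay within 1 kb of 10.3% and 14.3%. Most SOX2-alone sites lay far from the limit, with a median of 5.28 kb to the nearest such summit (quartiles 1.78 to 13.6 kb), and 3100 of them (32.5%) lay more than 10 kb from any. The nearest HA-SOX2 summit was at a median of 9.39 kb and the nearest RBPJ summit at 12.6 kb. Although no summit was near, the interval of an HA-SOX2 peak overlapped the peak of 312 SOX2-alone sites, and that of an RBPJ peak overlapped 630, in all 817 (8.57%).

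A TSS lay within 1 kb of 181 SOX2-alone sites (1.90%, 1.63 to 2.19%), against 3812 of the other sites (13.4%, 13.0 to 13.8%). This gave an odds ratio of 0.125 (95% interval 0.107 to 0.145, adjusted p = 6e-291 by the two-sided exact test of Fisher), and 0.0998 (0.0857 to 0.116) within 5 bins of fold. The share was also lower than in each other class, where it was 4.80% with HA-SOX2, 9.24% with RBPJ and 22.8% with both. The ratio was 0.510 with a limit of 100 bp in the rule and 0.0483 with one of 1000 bp. The rule removed sites near RBPJ and HA-SOX2 summits, the classes with more promoter sites, so this low share is a description. How far the rule alone sets it was not tested. The median distance to a TSS was 82.3 kb, against 36.3 kb at the other sites, and 45.1% of SOX2-alone sites lay more than 100 kb from any, against 27.3%. Introns held 44.2% of SOX2-alone sites, against 43.6% of the others, intergenic DNA 52.5%, against 48.1%, and exons 3.24%, against 8.30%. Beside NRARP, the strongest SOX2-alone promoters were those of ANKRD65 (fold 22.2), SEMA4C, a semaphorin (11.8), and CTXN3 (9.54), of which ANKRD65 and SEMA4C were overlapped by an RBPJ peak.

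The AP-1 motif was the most frequent of the motifs searched at SOX2-alone sites apart from the short SOX core. It lay within 100 bp of the summit at 3411 sites (35.8%, 34.8 to 36.8%), against 3.43% of flanks, windows of the same length 1 kb to one side of each summit. Among all words of 7 letters found at 200 or more SOX2-alone sites, TGACTCA had the highest ratio of sites to flanks. Over all 37963 SOX2 sites the share was 31.0%, and over the sites other than SOX2-alone it was 29.4% (odds ratio 1.34, 1.28 to 1.41, exact adjusted p = 7.2e-30), and the SOX2-alone share was the higher on 22 of 23 chromosomes. By class, AP-1 motifs were in 28.7% of sites with HA-SOX2 (odds ratio 1.39, exact adjusted p = 2.7e-13) and in 21.5% of sites with both (2.03, exact adjusted p = 5.1e-106). They were in 34.6% of sites with RBPJ alone, a share that did not differ from that of SOX2-alone sites past the threshold (1.05, 0.997 to 1.11, exact adjusted p = 0.0969). Within 5 bins of GC content the ratio was 1.11 (1.06 to 1.17) to all other sites and 0.911 (0.860 to 0.965) to sites with RBPJ alone. Among sites more than 1 kb from a TSS, the ratio to all other sites was 1.15 (1.097 to 1.212).

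The SOX motif was in 1568 SOX2-alone sites (16.4%, 15.7 to 17.2%), against 6.90% of their flanks and 16.5% of all SOX2 sites. The other sites had it at 16.5% (odds ratio 0.996, 0.935 to 1.06, exact adjusted p = 0.946), with classes above and below. It was in 23.3% of sites with HA-SOX2 (odds ratio 0.647, exact adjusted p = 2.6e-17), 12.4% of sites with RBPJ (1.39, exact adjusted p = 6.1e-18) and 20.5% of sites with both (0.761, exact adjusted p = 1.4e-12). Within 5 bins of fold the ratio to all other sites was 1.22 (1.15 to 1.30). Within those bins it remained below 1 against sites with HA-SOX2 (0.717, 0.650 to 0.791) and was 0.985 (0.912 to 1.06) against sites with both. The rule used HA-SOX2 summits, which are SOX2 binding as well. The SOX shares set against the classes with HA-SOX2 are therefore a description, and how far the rule alone sets them was not tested.

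**Figure D2:**
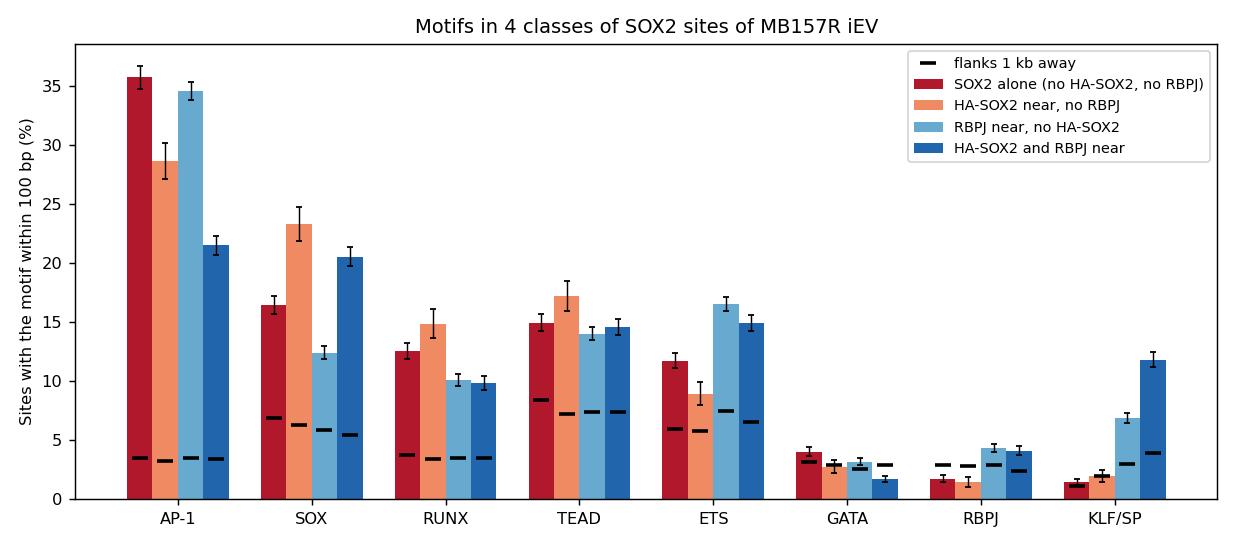
Percent of sites of each class with a motif within 100 bp of the summit, with exact binomial 95% intervals, and the percent in flanks 1 kb away (black dashes). The AP-1 motif is in 35.8% of SOX2-alone sites and 34.6% of sites with RBPJ alone, against 28.7% and 21.5% in the classes with HA-SOX2.

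Both motifs depended on strength. When all SOX2 sites were cut into 5 bins of fold, 10.6% of SOX2-alone sites in the lowest bin had a SOX motif and 26.0% an AP-1 motif, and in the highest bin 28.9% and 41.9%. Of the 50 strongest SOX2-alone sites, 28 had a SOX motif (56.0%), 23 an AP-1 motif (46.0%) and 4 the composite SOX and POU sequence (8.00%), against 82 of all 9534 (0.860%, flanks 0.388%) for the composite. None of the 50 strongest sites of any other class had the composite. Among the 500 strongest, however, it was in 11 SOX2-alone sites (2.2%) and 10 sites with HA-SOX2 (2%), against 3 with RBPJ and 4 with both, and over whole classes its share was 1.19% with HA-SOX2, 0.492% with RBPJ and 0.722% with both. These counts were made after the sequences had been seen and were not tested. The median fold was 5.79 at the 500 SOX2-alone sites with SOX and AP-1 motifs, 5.23 with SOX only, 4.95 with AP-1 only and 4.47 with neither. Of all SOX2-alone sites, 3180 (33.4%) held none of the SOX, AP-1, ETS, RUNX and TEAD motifs.

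**Figure D3:**
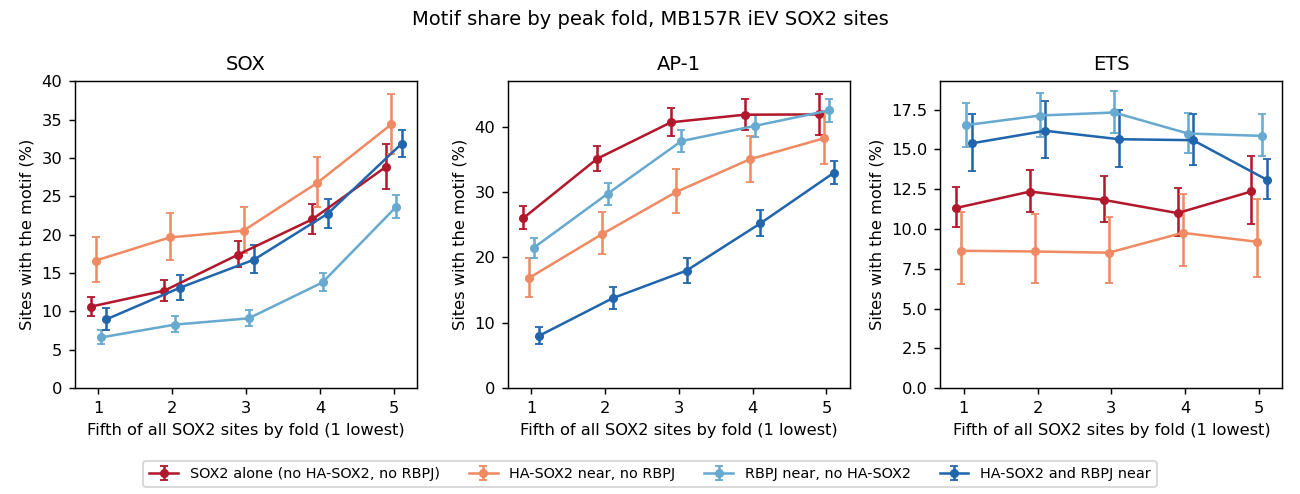
Percent of sites with a SOX, AP-1 or ETS motif in each of 5 bins of all SOX2 sites by fold, with exact binomial 95% intervals, for the 4 classes. The SOX share of SOX2-alone sites is 10.6% in the lowest bin and 28.9% in the highest.

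The motifs were centred on the summits. Within 25 bp of SOX2-alone summits there were 2.63 AP-1 motifs per kb, 14.9 times the density at 400 to 500 bp, and 1.57 SOX motifs per kb, 5.06 times that density. The rise was 4.10-fold for RUNX, 2.35-fold for ETS and 2.00-fold for TEAD motifs. The RBPJ motif (CGTGGGAA, TGTGGGAA, CGTGAGAA or TGTGAGAA) went the other way, with 0.0802 per kb near the summit, 0.562 times the density at 400 to 500 bp. It was in 1.71% of SOX2-alone sites, against 2.88% of their flanks, 3.89% of the other sites, 3.34% of all SOX2 sites and 4.31% of sites with RBPJ alone. The rule used RBPJ peaks, so that low share is a description.

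**Figure D4:**
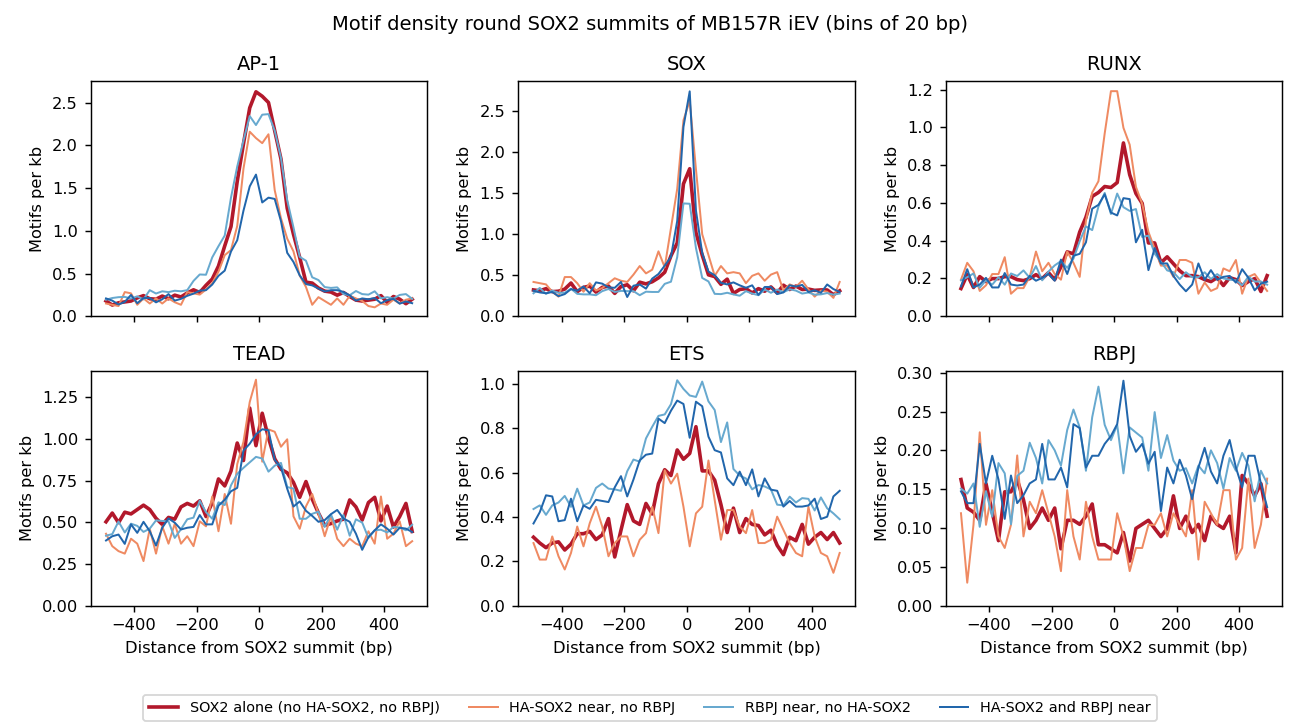
Motifs per kb by distance from the SOX2 summit in bp, in bins of 20 bp, for the 4 classes. AP-1 and SOX motifs peak at the summit of SOX2-alone sites (2.63 and 1.57 per kb within 25 bp), and RBPJ motifs dip there (0.0802 per kb).

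The ETS motif was in 11.7% of SOX2-alone sites (flanks 5.92%, all SOX2 sites 14.2%), against 15.1% of the other sites (odds ratio 0.748, 0.697 to 0.803, exact adjusted p = 1.2e-15). The ratio within 5 bins of GC content was 0.977 (0.906 to 1.05). Against sites with HA-SOX2 only, ETS motifs were more frequent at SOX2-alone sites (8.94%, odds ratio 1.36, exact adjusted p = 1.6e-05). RUNX motifs were in 12.5% (flanks 3.77%, all SOX2 sites 11%, other sites 10.5%, odds ratio 1.21, exact adjusted p = 4.6e-07), with a ratio of 0.928 within bins of GC content. TEAD motifs were in 1425 SOX2-alone sites (flanks 8.35%, all SOX2 sites 14.7%), with an odds ratio to the other sites of 1.03 (0.965 to 1.1, exact adjusted p = 0.436). The GC-rich KLF and SP box GGGCGGG was in 1.43% of SOX2-alone sites, against 7.97% of the others and 6.33% of all (odds ratio 0.167, and 0.559 within bins of GC content). GATA motifs (AGATAAG) were in 4.02% (flanks 3.14%), against 2.58% of the others and 2.94% of all. Their odds ratio to the other sites was 1.58 (exact adjusted p = 2.3e-11). Within bins of GC content it was 1.22 to the other sites and 0.965 (0.836 to 1.115) to sites with RBPJ alone. The median GC content of the 201 bases was 41.3% at SOX2-alone sites, 39.8% with HA-SOX2, 47.8% with RBPJ and 49.3% with both.

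SOX2-alone sites included many copies of related sequence. When the 401 bases at each SOX2 site were aligned with those of all others, 1524 SOX2-alone sites (16%, 15.2 to 16.7%) resembled another SOX2 site over 150 bp or more at 75% identity or more. This held for 10.3% of the other sites (odds ratio 1.67, 1.56 to 1.78, exact adjusted p = 1.9e-47), and for 12.1%, 10.6% and 9.09% of sites with HA-SOX2, with RBPJ and with both. Within 5 bins of fold the ratio was 1.68 (1.57 to 1.8). The SOX motif was in 24.0% of the SOX2-alone sites with a related site, against 15% of those without, and the AP-1 motif in 33.5%, against 36.2%. Without the sites that resembled another, the SOX share of SOX2-alone sites was lower than that of the other sites (odds ratio 0.918, 0.856 to 0.985, exact p = 0.0171). The alignment and this comparison were added after the data had been seen.

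In 1 family of 60 related sites on 20 chromosomes, 25 sites were SOX2-alone, with a median fold of 6.76 (3.31 to 12). Among its sites 53 had a SOX motif, 49 a TEAD motif and 45 both, and none of its SOX2-alone sites had an AP-1 motif. The family was the one with the highest share of SOX motifs among those with 20 or more SOX2-alone sites, so these counts are a description.

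Reads that fit several copies of a sequence equally well can be misplaced. The paper names an nf-core pipeline for ChIP-seq with its remaining settings at default, and does not itself say how such reads were treated. At the other end, a family with a median background of 41.5 fragments held 12 SOX2-alone sites with folds of 1.33 to 2.83, and one with 67.4 fragments held 7 with folds of 1.34 to 2.17. In all, 75 SOX2-alone sites had an expected background above 10 fragments and 27 a fold below 2.

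With N1-ICD induced, SOX2 was called again at 24 SOX2-alone sites (0.252%, 0.161 to 0.374%), against 278 of the other sites (0.978%, 0.867 to 1.1%). The background over all SOX2 sites of MB157R iEV was 0.796%, and the SOX2 list of MB157R iN1-ICD held only 323 peaks. Their odds ratio was 0.256 (0.168 to 0.388, exact adjusted p = 4.1e-14) and 0.395 (0.255 to 0.611) within 5 bins of fold. The highest bin spans folds of 8.11 to 62.9. It held 6 of the SOX2-alone sites called again, 5 of those with HA-SOX2, 83 of those with RBPJ and 141 of those with both. Differences in fold within that bin are not adjusted for. Against sites with HA-SOX2 only, of which 5 of 3357 were called again, no difference was detectable (odds ratio 1.69, 0.645 to 4.44, exact adjusted p = 0.432). Of the 24 sites, 15 had an expected background above 10 fragments and folds of 1.28 to 2.12. Leaving such sites out, 9 SOX2-alone sites (0.0951%) and 231 others (0.821%) remained, with an odds ratio of 0.115 (0.0591 to 0.224). The ratio was 0.0886 without sites that resembled another and 0.156 without the long stretches described below. The 9 sites had folds of 4.23 to 27.5 and included those in intron 1 of TTBK2, in intron 3 of GUCY1A2 (a subunit of soluble guanylate cyclase), in intron 2 of CDH4 (R-cadherin) and near GJA4 (a connexin). In the HA control of MB157 iEV, 4 SOX2-alone sites had a summit nearby, and 2 of these were among the 15.

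A protein-coding TSS lay within 50 kb of 3641 SOX2-alone sites, which gave 2925 genes at least 1 site. That is 14.7% of 19962 protein-coding genes, while 48.1% had any SOX2 site of MB157R iEV. Of the 2925 genes, 2363 had 1 SOX2-alone site and 30 had 4 or more. For 1016 of them, all SOX2 sites given to them as the nearest gene were SOX2-alone. BLID, which encodes an inducer of cell death, had the most with 7 sites (fold 3.56 to 11), which were all its SOX2 sites. MAL2, of epithelial transcytosis, had 6 of 13, PDC (phosducin) 5 of 6, and RHOBTB1 and GALNT7 (a glycosyltransferase) 5 of 8 each. AREG, TAS2R16 (a bitter taste receptor), USP25 (a deubiquitinase), TMCO5A and MMP13 (collagenase 3) had 4 each. At AREG the folds were 17.2, 9.40, 7.77 and 3.38, and at MMP13 13.1, 7.66, 4.70 and 4.46, the first of them 2.46 kb upstream of the TSS. Along the genome, 18.2% of SOX2-alone sites had another at most 12.5 kb away, and the largest such group was 6 sites at chr3:30342412-30354278, nearest to TGFBR2 (fold 3.21 to 7.43).

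The shares of genes with a SOX2-alone site are set beside the 14.7% of all genes and, since they differ in how often they have SOX2 at all, beside their share with any SOX2 site. Among canonical NOTCH targets it was 6 of 17 (35.3%), where 82.4% had any SOX2 site. These were NRARP, HEY1 (fold 12.2), MYC (6.33, 74 bp upstream of its TSS), HES7 (5.55), SNAI2 (5.41) and HES1 (4.43). The MYC and HES7 sites were overlapped by HA-SOX2 and RBPJ peaks whose summits lay 0.547 to 0.636 kb away. Of 30 receptors, ligands and machinery genes of the NOTCH pathway 8 had one (26.7%, any site 24 of 30), the strongest at the ligand DLL1 (6.08), the glycosyltransferase LFNG (5.33), the coactivator MAML2 (5.24) and the ligand JAG1 (4.73).

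Of 27 ETS genes 7 had a SOX2-alone site (25.9%, any site 70.4%). ETS2 had 2, with folds of 15.5 (7.52 kb upstream, overlapped by an RBPJ peak with its summit 0.954 kb away) and 4.56, ERG 2, ELK3 2 in its introns 1 and 2 (6.71 and 3.59), and ELF4 (6.08), ETV1 (5.70), ELF3 (4.44) and ETV4 (3.9) 1 each. Among 19 SOX genes found 6 had one (31.6%, any site 63.2%): SOX11 with a fold of 16, then SOX6 (5.73), SOX21 (4.80) and SOX3 (4.47), besides SOX9 and SOX4. Of 19 AP-1 genes 2 had a SOX2-alone site (10.5%, any site 73.7%), FOSL2 (10.3) and MAF (7.43).

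Basal mammary genes had the highest share of the lists, 9 of 21 (42.9%), and also the highest share with any site (95.2%). The strongest were at COL17A1 (a hemidesmosome collagen, 7.64), KRT6A (a keratin, 6.42, 244 bp upstream), TP63 (the basal transcription factor, 3 sites, up to 4.95) and ITGA6 (3 sites in its introns, up to 4.84). Luminal mammary genes had 2 of 22 (9.09%, any site 68.2%), KRT7 (5.41) and ERBB3 (4.05). Of 32 EMT and mesenchymal genes 12 had one (37.5%, any site 24 of 32), led by TCF4 (9.80), TGFB2 (6.53), TNC (a matrix protein, 3 sites, up to 6.24) and TGFBI (5.88). Epithelial junction genes had 5 of 28 (17.9%, any site 82.1%), led by PKP2 (6.27), GRHL2 (4.39) and OVOL1 (3.68).

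Stem cell and pluripotency genes had 9 of 22 (40.9%, any site 63.6%), led by ALDH1A1 (11.9), TDGF1 (11.1), ZFP42 (7.45) and CD44 (5.98). Receptor tyrosine kinases and their feedback genes had 10 of 29 (34.5%, any site 86.2%), among them MET (3 sites, up to 7.11), EPHA2 (6.90), GRB7 (5.45) and DUSP4 (5.07), and Src family and dasatinib target kinases 5 of 18 (27.8%, any site 77.8%), led by BLK (7.64), EPHA2, YES1 (4.17) and PDGFRA (4.05). YAP, TAZ and TEAD genes had 4 of 18 (22.2%, any site 83.3%): LATS2 (9.80), CCN2 (6.13), NF2 (4.73) and VGLL4 (2.54). Endothelial genes had 5 of 22 (22.7%, any site 72.7%), KDR, TEK (11.4), ERG, ANGPT2 (4.73) and CLDN5 (3.72). Among lists for other tissues, 2 of 16 liver genes (HNF4A 12.8, APOH 5.41), 1 of 20 neural genes (SYT1, 6.76), 1 of 18 blood cell genes (CD3E, 3.11) and 0 of 15 muscle genes had one. Few genes of these lists had any SOX2 site, 4 liver, 7 neural, 4 blood cell and 2 muscle genes. The lists with more SOX2-alone sites than the 14.7% were also above the 48.1% of all genes in their share with any SOX2 site, and no list was tested. A nearest gene is a matter of position, and whether a site acts on it was not measured.

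SOX2-alone sites were unevenly spread over the chromosomes. They made up 36.2% of SOX2 sites on chromosome 4, 35.5% on X and 34.8% on chromosome 18, and 10.7% on chromosome 19 and 14.0% on chromosome 17. The recovered background of MB157R iEV SOX2 peaks relative to that of MB157 iSOX2 HA-SOX2 peaks, each set against its list's genome background, had log2 ratios of -0.77 on chromosome 8 to 0.52 on chromosome 11. On the 12 chromosomes where it differed less than 1.2-fold, 26.7% of SOX2 sites were SOX2-alone, with a range of 17.7 to 36.2%. Compared site by site with the nearest HA-SOX2 peak within 100 kb, the median log2 ratio was 0.04 at SOX2-alone sites and 0.16 at sites with RBPJ only. This comparison has the same lower limit, covered 8651 of the 9534 SOX2-alone sites and leaves out those without such a peak.

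Some SOX2-alone sites lay in long stretches of the genome chosen for having no HA-SOX2 summit. The MB157 RBPJ lists had a smaller share of their peaks there than the MB157R RBPJ lists. HA-SOX2 summits of MB157 iSOX2 were 300 kb or more apart in 672 places, which together span 555 Mb. These places hold 1154 SOX2-alone sites (12.1%), against 4.93% of the other SOX2 sites. This difference follows in part from the rule, since sites with HA-SOX2 can lie there only under 500 bp from a bounding summit. The RBPJ lists, which the choice of stretches did not use, had 1773 peaks of MB157R iN1-ICD (4.75% of that list) and 2286 of MB157R iEV (4.91%) there, against 807 of MB157 iSOX2 (2.34%) and 490 of MB157 iEV (1.94%). Of the 71 stretches with 5 or more SOX2 sites and 10 or more RBPJ peaks of MB157R iEV, 36 had 2 or fewer RBPJ peaks in both MB157 lists together. These 36 held 284 SOX2-alone sites. All stretches were chosen for lacking peaks in a list of MB157 cells, the line of the MB157 RBPJ lists. How far this choice sets the lower MB157 shares in the full set was not tested. The 71 were chosen by RBPJ of MB157R iEV as well, so their excess over MB157 is in part built in. The reverse, stretches rich in RBPJ of MB157 and poor in that of MB157R, was not counted.

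The stretch with most SOX2 sites spans 2.50 Mb of chromosome 3 with CACNA2D3, LRTM1, the ligand gene WNT5A and ERC2. It had 40 SOX2 sites of MB157R iEV, 17 of them SOX2-alone (fold up to 17.6), and RBPJ peaks numbered 23 in MB157R iN1-ICD and 34 in MB157R iEV, against 1 in MB157 iSOX2 and 0 in MB157 iEV. At KCNMA1, a potassium channel gene on chromosome 10, there were 23 SOX2-alone sites, with 17 and 21 RBPJ peaks in MB157R iN1-ICD and MB157R iEV, against 1 in each MB157 list. Stretches at MCTP2 (15 SOX2-alone sites) and at CLNK and HS3ST1 (15) had 12 and 16 RBPJ peaks in MB157R iN1-ICD and 18 each in MB157R iEV, against none in MB157. The stretch at NRG1, a ligand of ERBB receptors, had 15 SOX2-alone sites, with 11 RBPJ peaks in each MB157R list, against 1 in MB157 iSOX2 and 0 in MB157 iEV. The 14 SOX2-alone sites of the BLID stretch include the 7 nearest to that gene, and the PSG5 site lies in another such stretch at the PSG gene cluster on chromosome 19.

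**Figure D5:**
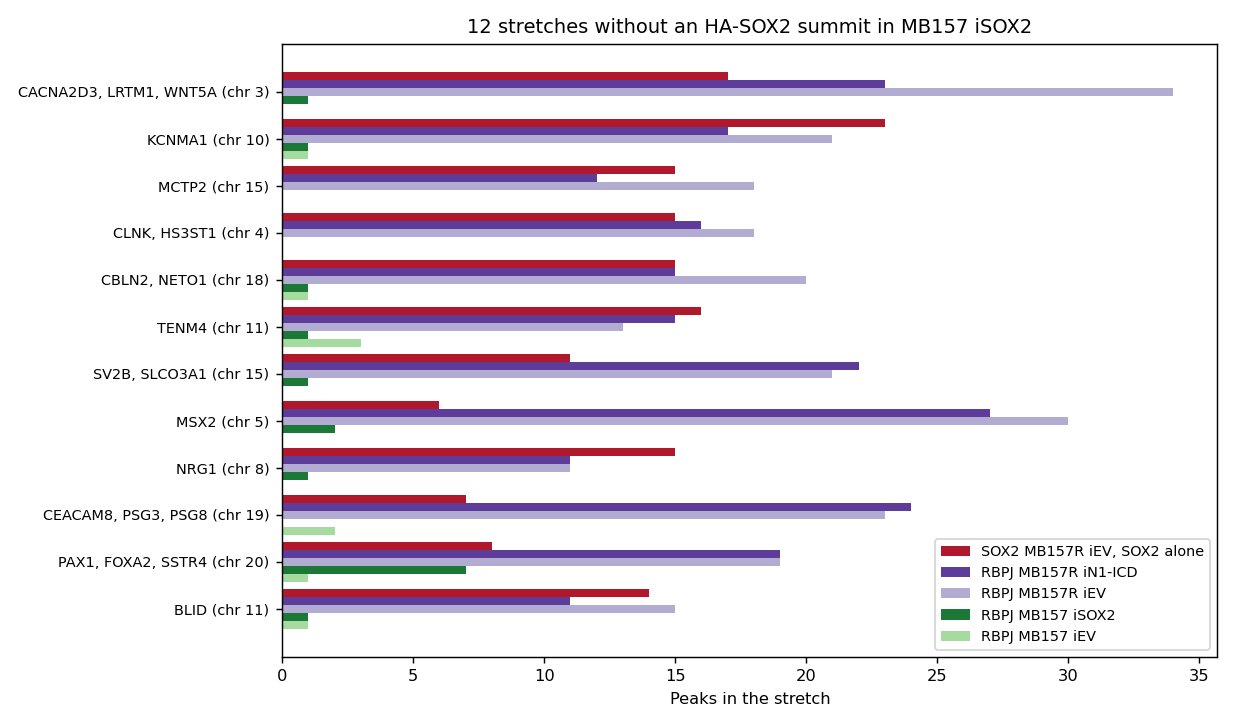
Number of SOX2-alone sites of MB157R iEV and of RBPJ peaks in the 4 RBPJ lists for the 12 stretches without an HA-SOX2 summit that hold most SOX2 sites, labelled by up to 3 of their genes. In the stretch with WNT5A there are 34 RBPJ peaks in MB157R iEV, against 1 in MB157 iSOX2 and none in MB157 iEV.

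These stretches were looked for after the data had been seen. A difference in DNA copies between the lines and a difference in binding cannot be told apart from peak lists. The SOX2-alone sites inside had a median fold of 4.95, against 4.73 outside, an AP-1 share of 35.5%, against 35.8%, and a SOX share of 17.3%, against 16.3%. Without the stretches, the odds ratios of SOX2-alone sites to the other SOX2 sites were 1.36 for the AP-1 motif and 0.132 for promoters.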

How the data were processed

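RBPJ, SOX2 and HA-SOX2 had been located by ChIP-seq. According to the labels and methods, the authors used BWA for alignment (hg38) and MACS2 for narrow peaks (false discovery rate 0.05), on the pooled libraries of each group against inputs. The 8 deposited lists give peak starts and ends in bp and the offset of the summit as other columns, the authors' ratio (fold enrichment at the summit over local background, with 1 added to both) and the deposited −log10 p and −log10 q.

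Only chromosomes 1 to 22 and X were used. From fold and p value, whole fragments at the summit were recovered for 98.8% or more of every list. Library depths were not used here, and the genome background of a list was 0.524 to 2.24 fragments. Sites were classed by summits under 500 bp apart. Genes and TSSs came from GENCODE 44, a promoter was 1 kb round a TSS, and a site's gene was that of the closest protein-coding TSS, up to 50 kb. Of 370 listed genes, 369 were found. For 27 motifs, the 201 bases round a summit and 1 flank 1 kb away (left and right in turn) were searched on both strands. Shares were compared by Fisher's exact test (two-sided) with Woolf intervals, Benjamini-Hochberg adjustment over 108 motif comparisons (4 references each) or 24 positional ones, and Mantel-Haenszel ratios over 5 bins of fold or GC. Related sites were found with BLAST 2.17.0, and families joined sites over 200 bp or more at 80% identity or more. The statistics were tested on simulated data.

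Named were the 15 strongest sites near genes outside HA-SOX2 and RBPJ peaks (at most 1 a gene), the 10 genes with most sites, up to 4 genes of each list (all for ETS) and ERG, EHF, FLI1 and BUB1. Genes of promoter sites, of sites called again with N1-ICD, of the long stretches and at TGFBR2, and the further genes of the NOTCH target and SOX lists, were named after their values were seen. The SOX2-alone sites, lists and tests were chosen with earlier results of these data known. The other tools were samtools 1.23.1, pysam 0.24.0, scipy 1.17.1, pandas 2.3.3, numpy 2.4.6 and matplotlib 3.10.9 under Python 3.11.15. Some sites, genes and sequences that these rules select are not reported here.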

Additional observations from a re-analysis of the deposited data

How the results depend on the processing

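The number of SOX2-alone sites was 17491 with a limit of 100 bp and 5540 when only SOX2 peaks with a −log10 q of 5 or more were kept, against 9534. Other limits, peak overlap and a stricter q in all lists kept it within 1.5 times. The promoter odds ratio stayed below 1 in every setting run, and that for SOX2 called again with N1-ICD did so except against sites with HA-SOX2 only (1.69). The AP-1 ratio to all other sites was above 1 in every setting run, but it was 1.08 at a limit of 100 bp and 1.15 beyond 1 kb of a TSS. Against sites with RBPJ only the AP-1 ratio was 1.05 with an interval that reached 1, and 0.911 within bins of GC content. The SOX ratio of 0.996 was 0.866 at a limit of 100 bp, 0.647 and 0.761 against sites with HA-SOX2 and with both, and 0.918 without related sites, yet 1.03 at 1000 bp, 1.06 with a −log10 q of 5 or more in the SOX2 list, 1.22 within bins of fold, 1.39 against sites with RBPJ and 1.15 for the SOX core of 6 letters. The ETS ratio was 1.36 against sites with HA-SOX2 and 0.977 within bins of GC content. RUNX turned to 0.821 against sites with HA-SOX2 and 0.928 within bins of GC content, and the RBPJ motif to 1.23 against sites with HA-SOX2. TEAD turned to 0.920 and 0.984 at 100 and 250 bp, 0.979 and 0.961 with a −log10 q of 5 or more in all lists and in the SOX2 list, 0.847 against sites with HA-SOX2, 0.878 within bins of GC content and 0.935 beyond 1 kb of a TSS. On chromosomes of like background 26.7% of SOX2 sites were SOX2-alone. The cause of these changes was not tested. The alternatives without long stretches lacking HA-SOX2, related sites or a background over 10 fragments were chosen after seeing the data. No paired analysis was possible because each condition is 1 list of pooled libraries, and for the same reason no replicate could be left out. The fewest fragments at a SOX2-alone summit were 8, and weaker binding was not detectable at this depth.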
